A study of Mus musculus with 4 samples.

Results

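Peroxisomes are small organelles, bounded by a single membrane, that break down very long and branched fatty acids, make the first part of ether lipids and dispose of hydrogen peroxide. Their proteins are made on ribosomes in the cytosol and brought in after synthesis by proteins called peroxins. The soluble chaperone Pex19 binds new membrane proteins and docks with them on Pex3, whereas the soluble receptor Pex5 binds enzymes of the interior, the matrix, and docks with them on Pex13 and Pex14. The genes described here are 8 of the 49568 gene symbols in the deposited table, taken by symbol from a list of peroxisomal membrane and import genes, and each was found once. Membrane proteins are encoded by 6 of them, namely Pex3, Pex16, Pex13, Pex14, Pxmp2 and Abcd3, and soluble factors by the other two, Pex5 and Pex19.

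The series profiled total RNA of mouse material by RNA sequencing. The migrasome group (2 libraries) holds migrasomes, vesicles that grow along the retraction fibres a cell leaves behind as it migrates, and the cytosol group (2 libraries) holds cytosol. No strain, genotype, treatment or cell type is labelled for either group. Depth was 5228713 and 5171092 recovered reads in migrasome replicates 1 and 2, against 7529136 and 8608369 in cytosol replicates 1 and 2. Values are the authors' normalised read counts, in which each library was divided by 1 size factor, and they are given with the mean ± SD (n = 2 libraries per group). They give the level of an RNA relative to the other RNAs of its library, and not its share of the library total. A change in the amount of an RNA per vesicle or per cell therefore cannot be told apart from a change in the other RNAs. Each difference is that of migrasome from cytosol in log2(value + 1), positive where migrasome is higher, with the standard error (SE) and the adjusted p (Benjamini-Hochberg over all genes tested) of limma, called at 0.05.

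The 5 fibroblast markers together stood between 58798 and 72780 in the migrasome libraries and between 48087 and 52362 in the cytosol libraries, while 4 macrophage markers together did not exceed 10.5 in migrasome and 10.97 in cytosol. Vim and S100a4 made up most of the fibroblast sum, and the 5 markers went different ways: Vim was higher in migrasome (0.94 on the log2 scale defined above, called), S100a4 was not called (0.50), and Col1a1 (-1.97), Col1a2 (-2.20) and Pdgfrb (-2.05) were called lower. The libraries labelled cytosol are not free of organelle and nuclear RNA. The summed value of the mitochondrial mRNAs mt-Co1 and mt-Cytb was 52715 and 119378 in migrasome, against 14530 and 25660 in cytosol. The summed value of the nuclear RNAs Malat1, Neat1 and Rn7sk was 12010 and 16852 in migrasome, against 80487 and 77434 in cytosol. The part of this difference between the fractions in the results below was not tested.

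Membrane-spanning stretches are hydrophobic, and their codons show it. The stretches below are the 57 coding bases of the 19 codons with the highest mean hydropathy (Kyte-Doolittle scale) in each protein, shown for 3 membrane proteins and both soluble factors because the comparison rests on this property. Codons with T at their middle base, which specify hydrophobic residues, are in capitals. The sequences were read 5′ to 3′ from the GENCODE M21 transcripts of GRCm38.
Pex13, residues 238 to 256, chr11:23655461-23655517, minus strand: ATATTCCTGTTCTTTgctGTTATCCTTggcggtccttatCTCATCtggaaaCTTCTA
Pex3, residues 115 to 133, chr10:13536000-13536056, minus strand: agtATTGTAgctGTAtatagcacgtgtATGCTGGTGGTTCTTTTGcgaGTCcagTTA
Pex14, residues 109 to 127, chr4:148970553-148970609, minus strand: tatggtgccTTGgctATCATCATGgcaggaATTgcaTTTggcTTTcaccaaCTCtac
Pex5, residues 458 to 476, chr6:124398913-124399270 with an intron left out, minus strand: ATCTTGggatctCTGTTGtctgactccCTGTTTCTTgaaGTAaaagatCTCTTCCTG
Pex19, residues 170 to 188, chr1:172130687-172130743, plus strand: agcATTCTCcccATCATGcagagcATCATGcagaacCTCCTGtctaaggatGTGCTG

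The mean hydropathy of these windows was 2.02 in Pex13, 1.86 in Pex3, 1.33 in Pex14, 1.25 in Pex5 and 0.78 in Pex19. It was 2.31 in Pex16, 2.06 in Pxmp2 and 1.75 in Abcd3. With a minimum of 1.6 over 19 residues, 5 of the 6 membrane proteins held at least 1 hydrophobic segment, of which Pex16 and Abcd3 held 2, and neither soluble factor held any. Pex14 fell under that minimum, so the measure misses some membrane proteins. The Pex19 coding sequence ends in the 4 codons of a farnesylation signal, at chr1:172134276-172134287 (plus strand), given in capitals before the stop codon: TGTCTGATCATGtga. This lipid tail lets part of the otherwise soluble Pex19 sit on membranes.

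Of the 8 genes, Pex14 alone passed the test, as lower in migrasome, and none passed as higher. All 8 cleared the filter on low values, which asked for 10 or more in 2 or more libraries. At an unadjusted p under 0.05, limma had 3 of them lower and 0 higher, and the share of all genes at that threshold is not given here. With adjustment, edgeR and DESeq2 each had 1 of the 8 lower and 0 higher. Of all genes, edgeR called 2064 lower and 1071 higher, and DESeq2 called 1599 lower and 1140 higher. Among all 10860 genes tested, limma with adjustment called 17.7% lower and 8.68% higher, so 1 call in 8 is near the background. Leaving out either cytosol library left 0 of the 8 called, and leaving out migrasome replicate 1 gave 2. Scaling each library to the same total gave 3, namely Pex14, Pex16 and Pex3. That scaling also raised the number of all genes called lower, from 1919 to 2522. No label states that replicates are separate cultures, so the p-values reflect the spread of these 4 libraries and that spread may be technical.

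**Figure D1:**
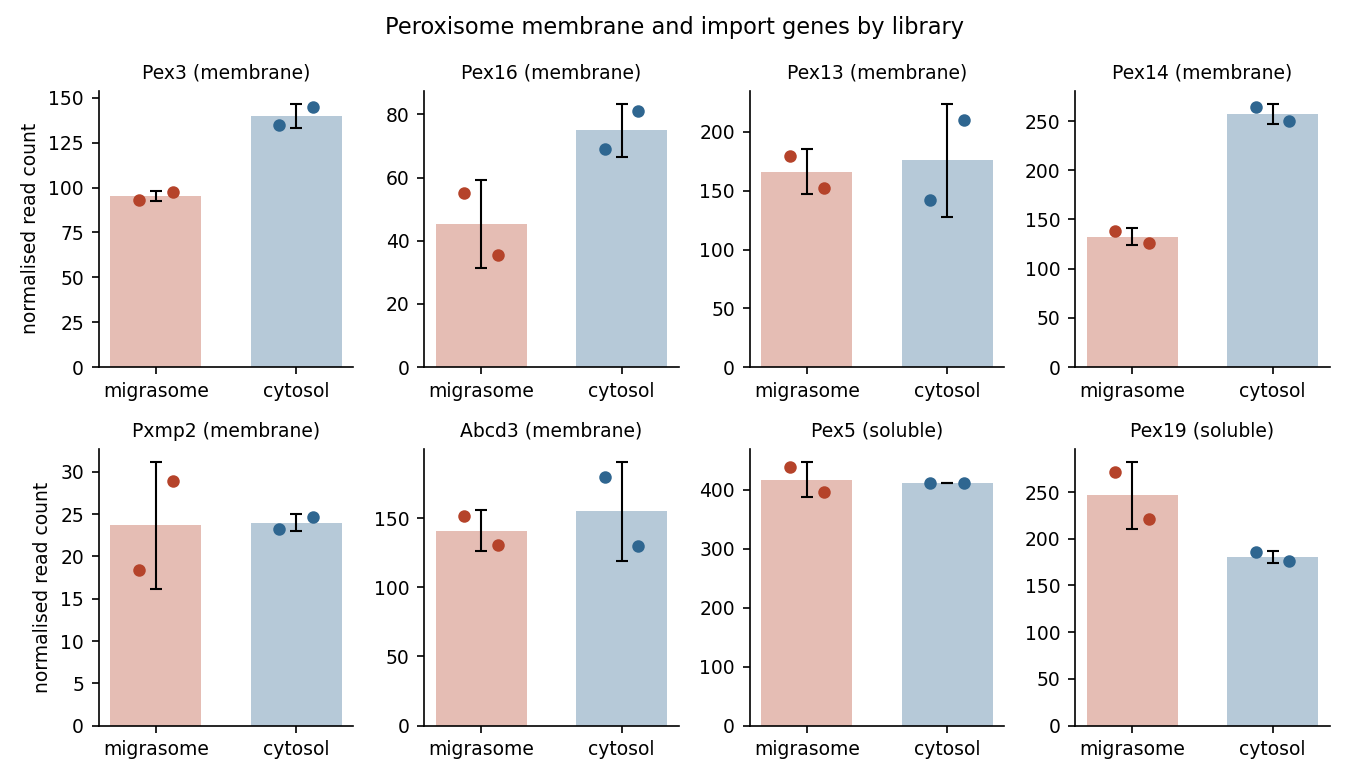
Normalised read count (vertical axes, each from 0) of the 8 genes in migrasome and cytosol; dots are the 2 libraries of a group, bars the mean and lines the SD. The Pex14, Pex3 and Pex16 dots are lower in migrasome without overlap, the Pex19 dots are higher without overlap, and the other 4 genes overlap.

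Pex3 and Pex16 are the membrane proteins with which new peroxisomal membrane proteins are inserted, Pex3 as the docking site of Pex19 and Pex16 as a factor that recruits Pex3. Pex3 (chromosome 10, 13523842 to 13553142, minus strand) had 93.3 and 97.4 in migrasome, against 135.0 and 144.7 in cytosol. Both migrasome libraries lay below both cytosol libraries, with means of 95.4 ± 2.86 in migrasome and 139.8 ± 6.89 in cytosol, and the log2 difference of -0.55 ± 0.24 (SE) did not pass (adjusted p = 0.115). Pex16 (chromosome 2, 92374676 to 92381217, plus strand) had 55.2 and 35.5 in migrasome, against 69.0 and 80.9 in cytosol. Its libraries did not overlap either, but the migrasome libraries lay far apart, and the difference of -0.74 ± 0.32 did not pass (adjusted p = 0.107). Without migrasome replicate 1 the Pex16 difference was -1.05 and passed (adjusted p = 0.025), and with every library scaled to the same total both genes passed (Pex16 -1.01, Pex3 -0.82).

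Pex13 and Pex14 form the dock at which Pex5 delivers matrix enzymes, and Pex14 passed the test where Pex13 did not. Pex14 (chromosome 4, 148960535 to 149099876, minus strand) had 138.6 and 126.3 in migrasome, against 264.5 and 249.7 in cytosol. The groups were well apart, with means of 132.5 ± 8.66 in migrasome and 257.1 ± 10.5 in cytosol, and Pex14 fell by 0.95 ± 0.22 on the log2 scale (limma adjusted p = 0.0133). The size of the difference stayed between -1.02 and -0.89 with any 1 library left out, but the call was lost without cytosol replicate 1 (adjusted p = 0.117) and without cytosol replicate 2 (adjusted p = 0.078). Pex13 (chromosome 11, 23646479 to 23665959, minus strand) had 179.6 and 152.7 in migrasome, against 142.0 and 209.9 in cytosol. The migrasome values lay between the cytosol values, and the difference of -0.06 ± 0.26 had a 95% interval from -0.64 to 0.52. The log2 value of Pex14 less that of Pex13 was -0.37 and -0.27 in the migrasome libraries, against 0.89 and 0.25 in the cytosol libraries. The groups did not overlap, but the cytosol values lay far apart. The exact two-sided permutation p of 0.333 is the smallest that 2 libraries against 2 can give, so that test cannot decide.

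Pxmp2 forms a channel for small metabolites in the peroxisomal membrane, and Abcd3 is a half-size ABC transporter that brings branched fatty acyl groups and bile acid precursors into the organelle. Pxmp2, on chromosome 5 from 110274282 to 110286186 (minus strand), was the lowest of the 8 genes, with 18.4 and 29.0 in migrasome, against 23.3 and 24.7 in cytosol. These are 13 and 22 reads in migrasome, against 30 and 36 in cytosol, so the depth allows little: the difference of -0.05 ± 0.39 had an interval from -0.92 to 0.82. Abcd3 (chromosome 3, 121758774 to 121815302, minus strand) had 151.3 and 130.3 in migrasome, against 180.0 and 129.6 in cytosol. Its groups overlapped, and the difference of -0.12 ± 0.26 had an interval from -0.69 to 0.45.

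Pex5, the receptor for enzymes that carry the type 1 targeting signal at their end, was the most read of the 8 genes. It lies on chromosome 6 from 124396816 to 124415067 (minus strand) and stood at 438.4 and 396.1 in migrasome, against 411.1 and 411.5 in cytosol. The cytosol values lay between the migrasome values, and the difference of 0.02 ± 0.20 had an interval from -0.43 to 0.47. Pex19, on chromosome 1 from 172126755 to 172136493 (plus strand), stood at 271.5 and 221.1 in migrasome, against 185.4 and 176.3 in cytosol. Both migrasome libraries lay above both cytosol libraries, with means of 246.3 ± 35.7 in migrasome and 180.8 ± 6.46 in cytosol, and the difference of 0.44 ± 0.23 did not pass (adjusted p = 0.171).

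Set side by side, the membrane protein genes had a median log2 difference of -0.33 and the soluble factor genes one of 0.23, where the median of all genes tested was 0.00. All 6 membrane differences were below 0 and both soluble ones above 0, although quantile normalization turned Pxmp2, Pex13 and Abcd3 positive and scaling to the same total turned Pex5 negative. Both migrasome libraries lay below both cytosol libraries for 3 of the 8 genes (Pex14, Pex16 and Pex3) and above them for 1 (Pex19), where the shares over all genes tested were 36.3% and 33.3%. Scaling to the same total moved the median of all genes by -0.27 and quantile normalization moved it to 0.11. Relative to those shifts the membrane median was -0.33 and -0.11, and the soluble median 0.23 and 0.25.

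Shares of reads within a library do not depend on the scaling between libraries. Of the reads on the 8 genes, the membrane protein genes held 47.3% and 48.1% in migrasome replicates 1 and 2 (Wilson 95% intervals 44.1 to 50.4 and 44.8 to 51.3). In cytosol they held 57.7% and 58.8% (55.4 to 60.0 and 56.7 to 60.9). The intervals of the groups did not overlap, and they cover counting error only, as no molecular identifiers are stated and several reads may be copies of 1 molecule. Pex19 held 74.4% and 69.4% of the reads on Pex19 and its docking site Pex3 in migrasome, against 57.9% and 54.9% in cytosol, and so had more reads than Pex3 in all 4 libraries. Pex19 and Pex14 have the highest and the lowest difference of the 8, so their pairing restates those values: Pex19 held 66.2% and 63.6% of the reads on both in migrasome, against 41.2% and 41.4% in cytosol. Pex5 held 76.0% and 75.8% of the reads on Pex5 and Pex14 in migrasome, against 60.9% and 62.2% in cytosol. With Pex14 left out, a choice made after the values were seen, the 5 other membrane protein genes held 41.2% and 41.9% of the reads on 7 genes in migrasome (38.0 to 44.6 and 38.5 to 45.3), against 47.9% and 50.1% in cytosol (45.4 to 50.5 and 47.7 to 52.4). These intervals did not overlap between the fractions either.

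**Figure D2:**
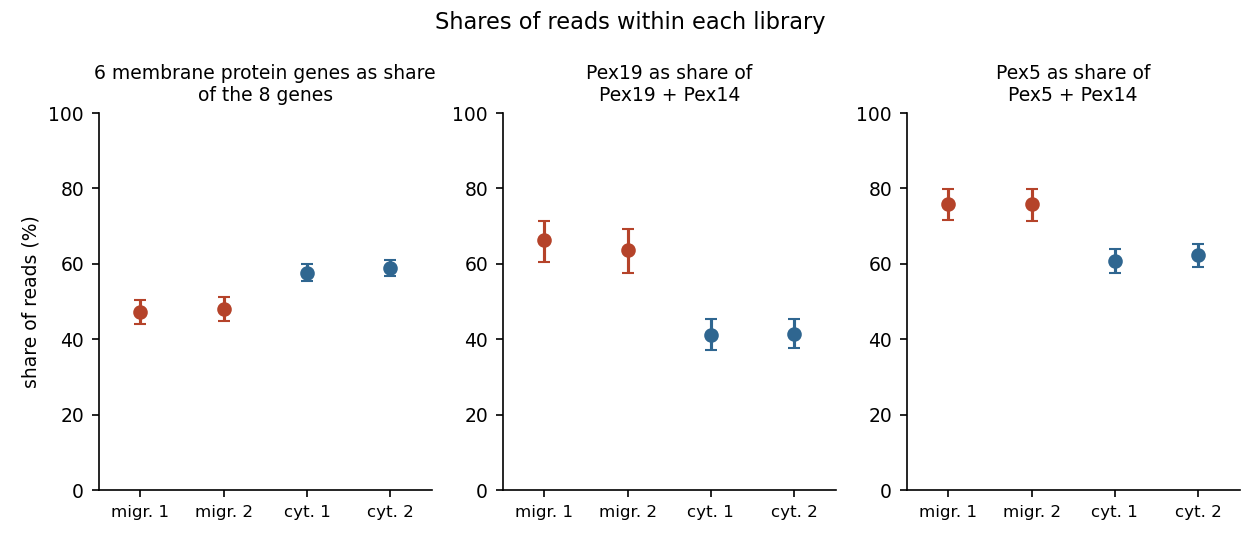
Share of reads (%) within each of the 4 libraries, migrasome left and cytosol right, for the pairings named above each panel; dots are single libraries and lines the Wilson 95% interval for counting error. The membrane protein genes hold 47.3% and 48.1% in migrasome and 57.7% and 58.8% in cytosol, and Pex19 takes 66.2% and 63.6% in migrasome, against 41.2% and 41.4% in cytosol, of the reads on Pex19 and Pex14.

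Levels were compared between genes as normalised read counts per kilobase of annotated exon. Pex5 was highest in both fractions, at 106 ± 7.58 in migrasome and 104 ± 0.067 in cytosol, followed by Pex19 at 64.6 ± 9.35 in migrasome and 47.4 ± 1.69 in cytosol. Pex13 had 35.8 ± 4.10 in migrasome and 37.9 ± 10.3 in cytosol, and Pex16 had 25.5 ± 7.82 in migrasome and 42.2 ± 4.74 in cytosol. Pex14 had 21.1 ± 1.38 in migrasome and 41.0 ± 1.68 in cytosol, and Pex3 had 20.1 ± 0.60 in migrasome and 29.5 ± 1.45 in cytosol. At the low end, Abcd3 had 21.4 ± 2.26 in migrasome and 23.5 ± 5.40 in cytosol, and Pxmp2 had 19.7 ± 6.23 in migrasome and 19.98 ± 0.84 in cytosol. In migrasome, neighbours in the order from Pex13 down to Pxmp2 had overlapping ranges of mean ± SD. In cytosol the same held from Pex19 down to Pxmp2, while Pex5 stood clear of Pex19 in both fractions. Exon lengths are unions over all annotated isoforms, so the scale of each gene is approximate.

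The genes with the profile most like that of Pex14 over the 4 libraries, by Euclidean distance between centred log2 values among 8263 genes with a mean of at least 50, were Frk (0.025), Sde2 (0.040) and Cdkn2d (0.044). For Pex5 they were Scyl2 (0.021), Ptpa (0.024) and Cab39 (0.031). Frk, for example, stood at 100.4 and 93.4 in migrasome, against 192.4 and 183.8 in cytosol.

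No other gene of the peroxisomal membrane list, which leaves out genes shared with mitochondria such as Atad1, passed the test. Of 13 listed, 11 were tested, and limma called 0 higher and 0 lower, with 5 positive and 6 negative differences and a median of -0.12. At an unadjusted p under 0.05, 0 were higher and 2 lower, and the share of all genes at that threshold is not given here. edgeR and DESeq2 each called 1 gene lower among the whole membrane list of 17 tested genes, the 6 described included. Of all genes, they called 2064 and 1599 lower. Far1, which makes fatty alcohols for ether lipids, was the most read, at 1776 and 1295 in migrasome, against 1259.8 and 1125 in cytosol (0.35 ± 0.22, adjusted p = 0.256). Acbd5, a tether to the endoplasmic reticulum, stood at 680.2 and 398.8 in migrasome, against 436.0 and 364.2 in cytosol. The carrier Slc25a17 stood at 424.3 and 344.8 in migrasome, against 369.3 and 366.9 in cytosol. Pex2 and Pex10, ubiquitin ligase subunits that act on Pex5 and were named after their values were seen, differed by -0.36 ± 0.22 and by -0.12 ± 0.37, without passing.

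In the machinery that recycles Pex5, Pex6 passed the test as higher. Pex6 is an ATPase, held at the membrane by Pex26, that helps to pull used Pex5 back into the cytosol. Pex6, on chromosome 17 from 46711463 to 46725541 (plus strand), stood at 1299.7 and 1088 in migrasome, against 254.4 and 232.5 in cytosol. The migrasome mean of 1194 ± 149 was 4.90 times the cytosol mean of 243.5 ± 15.5, and Pex6 rose by 2.29 ± 0.21 on the log2 scale (limma adjusted p = 0.00041). That was the 40th largest increase of the 10860 genes tested, and it stayed between 2.16 and 2.41 with any 1 library left out, past the test each time. Pex26, named after its values were seen, was low, with 8.49 and 18.4 in migrasome, against 21.7 and 13.0 in cytosol (-0.40 ± 0.51).

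No annotated gene shares exon sequence with Pex6. Pex7, the receptor for the type 2 targeting signal, stood at 97.6 and 79.0 in migrasome, against 64.4 and 78.2 in cytosol (0.30 ± 0.28, adjusted p = 0.423).

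The enzymes that these factors import were tested in 23 of 35 listed cases. In migrasome 8 of the 23 rose (34.8%, beside 8.68% over all genes tested) and 0 fell. The difference was above 0 for 22 of them, and the median was 0.68, which stayed positive when all libraries were scaled to the same total (0.41). At an unadjusted p under 0.05, 16 were higher and 0 lower, and the share of all genes at that threshold is not given here. With adjustment, edgeR and DESeq2 each called 11 of the list higher, beside 1071 and 1140 of all genes. The largest differences were those of the protease Lonp2 (1.13 ± 0.27), the beta-oxidation enzyme Hsd17b4 (1.09 ± 0.22), the phytanic acid enzyme Phyh (1.07 ± 0.32) and catalase, Cat (1.02 ± 0.22). Cat stood at 390.3 and 340.9 in migrasome, against 198.6 and 161.2 in cytosol. Others that rose were Acaa1a (0.88), Crot (0.79) and Gnpat (0.68). Agps, which with Gnpat begins ether lipid synthesis, was the most read at 3045 and 2393 in migrasome, against 1698 and 1801 in cytosol, and did not pass (adjusted p = 0.054).

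Calls in the matrix list depended on single libraries, as did the calls over all genes tested. With every library scaled to the same total, the count called higher went from 8 to 3 in the list. Over all genes it went from 943 to 322. Lonp2 and Hsd17b4 passed in every alternative run. The call of Cat was lost without cytosol replicate 2 (0.87, adjusted p = 0.098), and those of Acaa1a, Crot, Gnpat and Phyh were each lost without 2 or 3 of the libraries in turn (adjusted p from 0.066 to 0.27).

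The type 1 targeting signal that Pex5 reads is the last 3 codons of a matrix enzyme. It is shown for 2 enzymes, of which Lonp2 carries the standard form and Cat a variant, with the signal in capitals and the stop codon in lower case.
Lonp2, chr8:86716460-86716468, plus strand: AGCAAACTAtag
Cat, chr2:103454759-103454767, minus strand: GCTAACCTGtaa

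The signal, taken as serine, alanine or cysteine, then lysine, arginine or histidine, then leucine or methionine at the end of the longest coding sequence, was found in 18 of the 35 matrix enzymes (51.4%). It was found in 107 of all 21147 coding genes (0.506%) and in none of the 8 genes described. Variants such as that of Cat are not counted, and a few of the enzymes use the type 2 signal at the other end.

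**Figure D3:**
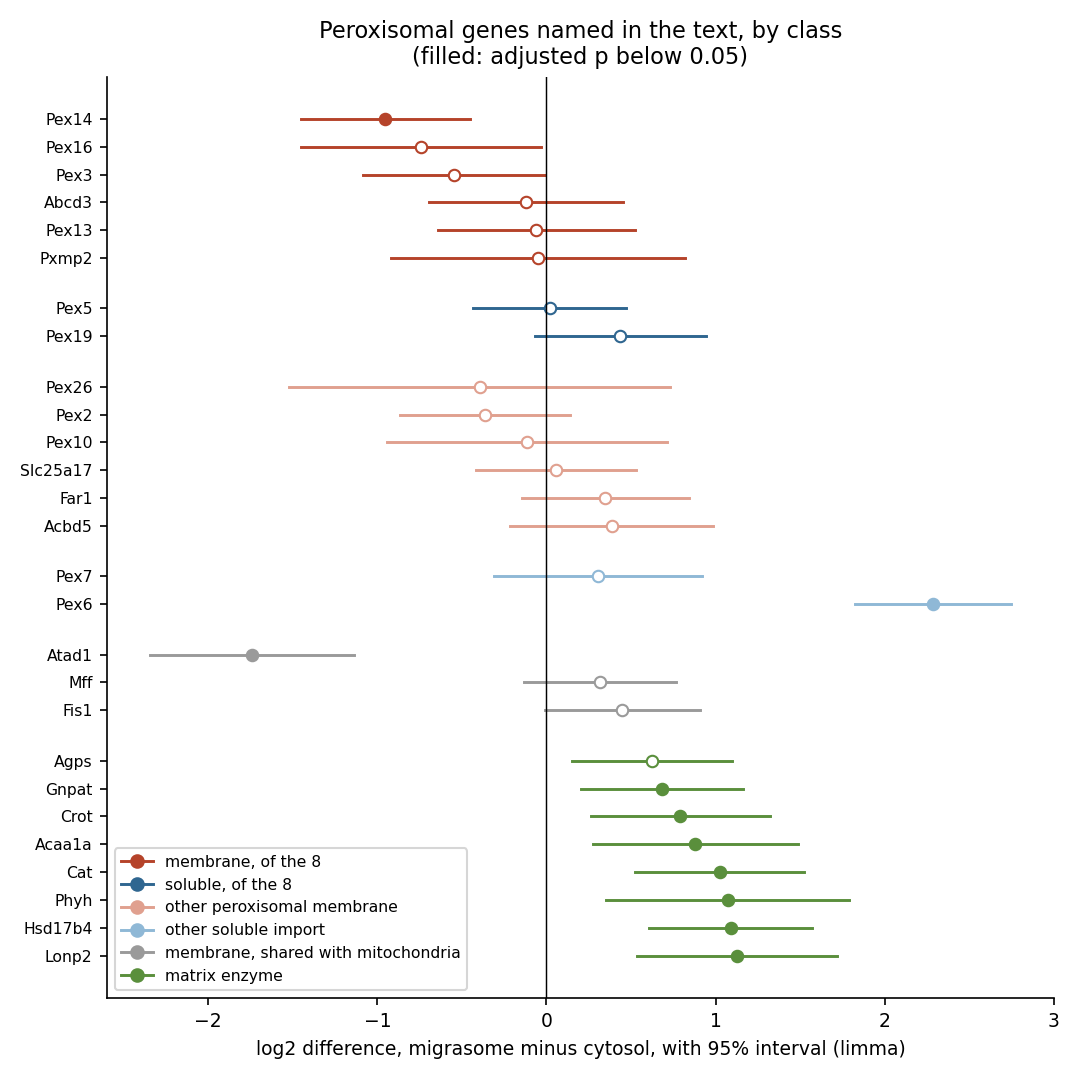
Log2 difference, migrasome minus cytosol (horizontal axis), with the 95% interval of limma for the 27 peroxisomal genes drawn, grouped by class; filled dots passed at an adjusted p of 0.05. Among the peroxins and other membrane genes drawn, Pex14 at -0.95 and Pex6 at 2.29 are filled, Atad1 at -1.74 is filled among genes shared with mitochondria, and 7 of the 8 matrix enzymes drawn are filled, all to the right of 0.

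Genes for membrane proteins that peroxisomes share with mitochondria were mixed. Atad1, an ATPase that removes misplaced tail-anchored proteins from both organelles, stood at 186.7 and 327.7 in migrasome, against 854.9 and 803.1 in cytosol, and fell by 1.74 ± 0.27 on the log2 scale (limma adjusted p = 0.0017). Its difference was between -2.14 and -1.34 with any 1 library left out, past the test each time. The fission factor genes Fis1 (0.45 ± 0.21) and Mff (0.32 ± 0.20) did not pass. Among matrix enzymes shared with other compartments, 1 of 6 rose, the isomerase Ech1 (0.85 ± 0.23), a call lost without cytosol replicate 1. The antioxidant enzyme gene Prdx5 (0.60 ± 0.23) and Idh1 (0.62 ± 0.33) did not pass.

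The peroxisomal membrane genes were then set beside all coding genes with the same number of hydrophobic segments. Of the 17 tested genes of the peroxisomal membrane, the 6 described included, 1 was called lower (5.88%) and the median difference was -0.12. Among all tested genes with 2 or more segments, 754 of 1360 were called lower (55.4%), with a median of -1.10. The 6 peroxisomal membrane genes in that class, Pex16, Abcd3, Pex2, Pex10 and Slc25a17 among them, had a median of -0.12 and 0 calls. With 1 segment, 520 of 1671 genes were called lower (31.1%, median -0.29), and the 7 peroxisomal ones, Pex3, Pex13 and Pxmp2 among them, had a median of -0.55 and 0 calls. With no segment, 522 of 6933 were called lower (7.53%, median 0.13), and of the 4 peroxisomal membrane genes tested in that class 1 was called lower, Pex14, with a median of 0.24. These counts describe the lists and were not tested against each other.

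**Figure D4:**
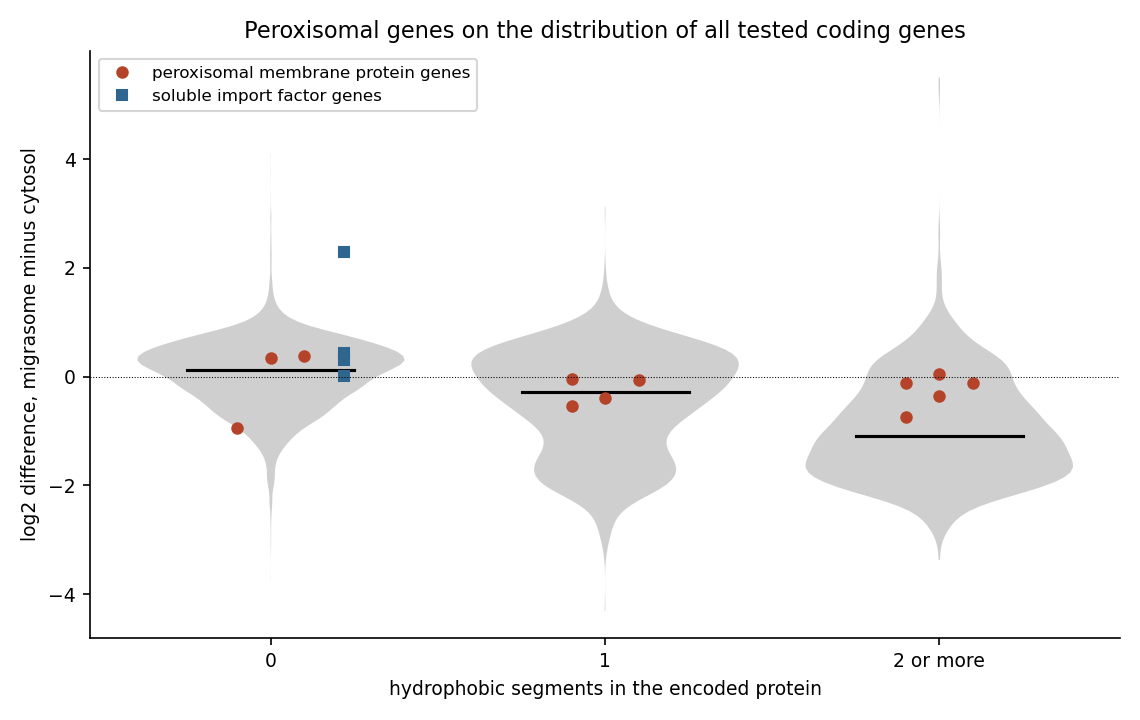
Log2 difference, migrasome minus cytosol (vertical axis), by the number of hydrophobic segments in the encoded protein; grey shapes are all tested coding genes with a bar at the median, red dots 12 peroxisomal membrane genes named in the text and blue squares 4 soluble import genes. In the class with 2 or more segments the bar lies at -1.10 and the 5 red dots lie from -0.74 to 0.06.

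Beside them, the Tmem genes, named for transmembrane proteins, were called lower in 74 of 134 cases (median -1.06). The mitochondrial Slc25 carriers were called lower in 3 of 35 and higher in 1 (median -0.22), and 18 genes of the mitochondrial outer membrane were called lower in 0 and higher in 3 (median 0.23). The 17 peroxisomal membrane genes, with a median of -0.12 and 1 call, had a median between those of the mitochondrial groups.

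Overlapping annotation bears on some of these values, as no source used here gives the strand setting of the authors' counting. An antisense gene, Gm17029, covers 28.3% of the exon bases of Pex14 and had values of 0 and 0 in migrasome, against 0.776 and 1.37 in cytosol. Adat2, on the strand opposite Pex3, shares 5.25% of its exon bases and stood at 52.3 and 55.3 in migrasome, against 46.5 and 74.8 in cytosol. Pex16 shares 7.15% with Large2, which had no read, and Pxmp2 10.8% with Gm15788, which had none either. The pseudogene Pex13-ps had 1 read in the 4 libraries.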

How the data were processed

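Total RNA of migrasomes and cytosol was sequenced in 2 libraries per group, as titled. DESeq, HTSeq, STAR, FastQC, Trimmomatic and cutadapt are named in the submitters' processing notes with the build GRCm38 and with neither role nor version. The strand setting and annotation were not given in the sources used here. In unit, the deposited signal is a normalised read count, which the authors made by dividing a library's gene counts by its size factor, as far as the values show. Dividing by the smallest value above 0 in a library gave whole reads for 100% of values (tolerance 0.001). Replicates differed beyond counting noise (chi-square over degrees of freedom 27.9 between migrasome and 17.6 between cytosol libraries).

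The log2(value + 1) scale understates changes of low genes. Tests used limma 3.58.1 in R 4.3.3, with a trended eBayes prior, over the 10860 genes that reached 10 in 2 or more of 4 libraries, with Benjamini-Hochberg adjustment. edgeR 4.0.16 and DESeq2 1.42.0 on the recovered reads were alternatives, with other pseudocounts, filters, scalings, a replicate block and each library left out. The scripts were tested on simulated data. The 8 genes and the lists were chosen with earlier results of these data known. Named genes were the 8, every called gene of the other peroxisomal lists, and the 3 most read per list; Pex2, Pex10 and Pex26 were added after their values were seen. Some genes that the rule names are not reported here. Positions, exon lengths and coding sequences came from GENCODE M21 (GRCm38), where 47139 symbols had 1 entry. The longest coding sequence of a gene was translated with Biopython 1.88, and a hydrophobic segment is a window of 19 residues with a mean Kyte-Doolittle value of at least 1.6.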

Additional observations from a re-analysis of the deposited data

How the results depend on the processing

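Pex14 passed in every alternative with all 4 libraries, and Pex6, Atad1, Lonp2 and Hsd17b4 passed in all alternatives run. Scaling every library to the same total called 3 of the 8 genes and 4 of the 17 peroxisomal membrane genes lower, beside 2522 of all genes. It called 3 matrix enzymes higher, beside 322 of all genes, and gave a membrane median of -0.60 and a soluble median of -0.044. Quantile normalization gave a membrane median of -0.00095 and a distance of -0.37 between the membrane and soluble medians (-0.56 as reported). It reversed Abcd3 (0.20), Pex13 (0.22) and Pxmp2 (0.30), none of which was called. A minimum mean of 50, which drops Pxmp2, gave a membrane median of -0.55 and a distance of -0.77. Without the filter, 393 of all genes and 3 matrix enzymes were called higher, and with eBayes without a trend 483 and 4. DESeq2 reversed Pxmp2 (0.013), and scaling to the same total reversed Pex5 (-0.25).

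With 1 library left out, the count of the 8 genes called lower ranged from 0 to 2, that of peroxisomal membrane genes called lower from 0 to 3 and that of matrix enzymes called higher from 4 to 12. All genes called lower ranged from 1147 to 2800 and higher from 231 to 2085. The membrane median ranged from -0.47 to -0.37, and the distance between the medians from -0.74 to -0.49. Abcd3 ranged from -0.36 to 0.11, turning positive without cytosol replicate 1, and Pex13 from -0.34 to 0.22, positive without migrasome replicate 2 (0.057) or cytosol replicate 2. Pex5 ranged from -0.054 to 0.092 and Pxmp2 reached 0.26, both reversed without migrasome replicate 1. The cause was not tested.

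The labels do not say that the replicate numbers pair the libraries. Deviations of same-numbered libraries from their group means correlated at 0.23 across genes. With a replicate block 2 of the 8 genes (Pex14 and Pex16) and 3 of the 17 peroxisomal membrane genes were called lower, beside 2621 of all genes. As higher, 16 matrix enzymes and 1802 of all genes were called. Depth limits Pxmp2 and Pex26 most, and 0 reads in a library allows up to 3, worth 4.24 and 3.95 in migrasome and 2.33 and 2.06 in cytosol.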
